A study of Homo sapiens with 3 samples.

Results

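In C4-2 prostate cancer cells, 185 genes for small nuclear and small nucleolar RNAs had at least 10 reads in each of 3 libraries, out of 2890 such genes in the files. They were the genes whose GENCODE release 44 gene type was snoRNA (112 of 941 genes), snRNA (64 of 1900) or scaRNA (9 of 49). They were chosen by their read counts, so their levels are given as a description with no test. By symbol, the 112 snoRNA genes were 57 C/D box RNAs, 48 H/ACA box RNAs and 7 genes without a class name. Of the 64 snRNA genes, 36 were named as pseudogenes.

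C4-2 is a prostate adenocarcinoma line derived from LNCaP, and the labels give its genotype as wild type. The 3 libraries were replicates of this 1 group, with no treatment named, and the labels did not say whether they came from separate cultures. Any p-value given here thus measures only how far these libraries spread, and that spread may be technical. The series also covers neuroendocrine cells and knockdown of neuropilin-2; those samples were not analysed here, and groups were not compared.

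Small nucleolar RNAs mostly guide chemical changes on ribosomal RNA. C/D box RNAs carry fibrillarin to sites of 2′-O-methylation, and H/ACA box RNAs carry dyskerin to sites of pseudouridylation. A few of them, such as U3, U8 and U17, instead take part in cutting the ribosomal RNA precursor. Cajal body RNAs do the same guiding work on the small nuclear RNAs, which form the core of the spliceosome. In human cells most guide RNAs are cut out of the introns of host genes, whereas the spliceosomal RNAs and U3 have promoters of their own.

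Replicates 1, 2 and 3 had 51200272, 47513470 and 49965601 reads assigned to genes. Members took 0.0767%, 0.0735% and 0.103% of these reads, so the share was highest in replicate 3. The prostate luminal marker KLK3 was at 1421, 1429 and 1469.7 TPM (a level per length of exon, scaled to the same total in every library). The basal markers KRT5 and TP63 were at 0 reads in every library, and KRT14, the other basal marker, had 41, 38 and 33 reads (1.01 ± 0.121 TPM). The 4 neuroendocrine markers lay between 0.313 and 2.53 TPM. The RNA was total RNA depleted of ribosomal RNA and prepared as fragments for sequencing, not as a small RNA library.

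The sequences of 5 abundant small RNAs show the signals by which the classes are recognised. They were read from GRCh38 (hg38) on the strand of each gene. SNORD104 (chr17:64146083-64146152, plus strand, intron of SNHG25), SNORD116-19 (chr15:25086527-25086618, plus strand, intron of SNHG14) and SNORD88A (chr19:50799442-50799532, minus strand, intron of C19orf48P) are C/D box RNAs. Capitals mark a C box TGATGA in the first 18 bases and a D box CTGA in the last 18 bases. SNORD88A is shown because it lacked those C box letters in its first 18 bases. SNORA73B, or U17b (chr1:28508559-28508762, plus strand, intron of RCC1), is an H/ACA box RNA, and SCARNA21 (chr17:7906122-7906260, plus strand, intron of CHD3) is a Cajal body RNA. In these, capitals mark an ACA in the last 8 bases.
SNORD104: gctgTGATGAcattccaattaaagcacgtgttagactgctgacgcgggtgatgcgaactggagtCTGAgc
SNORD116-19: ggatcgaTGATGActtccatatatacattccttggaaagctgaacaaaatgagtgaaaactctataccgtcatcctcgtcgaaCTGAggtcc
SNORD88A: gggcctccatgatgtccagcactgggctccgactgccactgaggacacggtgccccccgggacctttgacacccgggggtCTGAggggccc
SNORA73B: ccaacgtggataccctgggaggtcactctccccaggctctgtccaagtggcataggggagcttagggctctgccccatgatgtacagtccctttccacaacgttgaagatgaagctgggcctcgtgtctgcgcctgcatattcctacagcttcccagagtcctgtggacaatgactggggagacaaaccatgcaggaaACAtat
SCARNA21: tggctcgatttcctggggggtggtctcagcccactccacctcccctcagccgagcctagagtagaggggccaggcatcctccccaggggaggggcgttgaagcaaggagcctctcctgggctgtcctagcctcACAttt

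These letters were common among the members of each class. The C box TGATGA was found in 37 of 57 C/D box members (64.9%), against 1 on the opposite strand and 1 in a window of the same size upstream of the genes. The D box CTGA was found in 50 of the 57 (87.7%), against 9 on the opposite strand and 4 upstream. Both boxes were found in 36 members, and in 0 of the upstream windows. The windows for the boxes lie at opposite ends of the gene and cannot overlap. Among the 328 C/D box genes that were not members, 164 had the C box and 269 (82.0%) the D box. The ACA was found in 44 of 48 H/ACA box members (91.7%), against 5 on the opposite strand and 2 upstream, and in 79.4% of the 165 H/ACA genes that were not members. Among the Cajal body RNAs 5 of 9 members had it, against 1 on the opposite strand and 2 upstream, as did 28 of the 40 that were not members. A match is a match of letters only.

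Reads were concentrated in a few members. SNORD3A, a gene for U3, the RNA that pairs with the ribosomal RNA precursor for its first cleavages, had 15353, 14588 and 21778 reads. SNORA73B, the U17 RNA of the same pathway, had 4618, 3754 and 7152 reads. Both were highest in replicate 3. All members together held 0.0845% ± 0.0162 of reads (SD, n = 3), and the share was 0.0497% without SNORD3A. C/D box members held 0.0423%, H/ACA box members 0.0198%, snRNA members 0.0165% and Cajal body members 0.00547%.

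Per length of exon, 3 RNAs stood at the top. SNORA73B was at 1348, 1195 and 2099.7 TPM. SNORD3A was at 1308, 1355 and 1866 TPM, over an annotated exon of 699 bases that is longer than the U3 RNA, so its level per length of RNA is understated. RNU4-2, a U4 gene, was at 1306, 1179 and 1845 TPM. All 3 were highest in replicate 3, and the ranges of the 3 genes overlapped.

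Typical members were far lower. The median C/D box member was at 20.9 ± 0.905 TPM and the median H/ACA box member at 21.6 ± 1.53 TPM (SD, n = 3). On the log2(TPM + 0.1) scale the H/ACA median of members lay 0.05 ± 0.06 above the C/D median. Without division by length the difference was 0.46, and H/ACA box members were longer, with a median of 135 bases against 91. The read minimum asks a higher TPM of shorter genes, so these medians cannot show whether the classes are alike in level. Without it, genes in introns that share no exon base had medians of 0.490 TPM (C/D box) and 5.61 TPM (H/ACA box). Over all annotated genes of each class both medians were 0 TPM. The median Cajal body member was at 39.2 ± 5.60 TPM and the median snRNA member at 12.5 ± 0.591 TPM. Members of all classes spanned 4.76 to 1548 TPM.

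**Figure D1:**
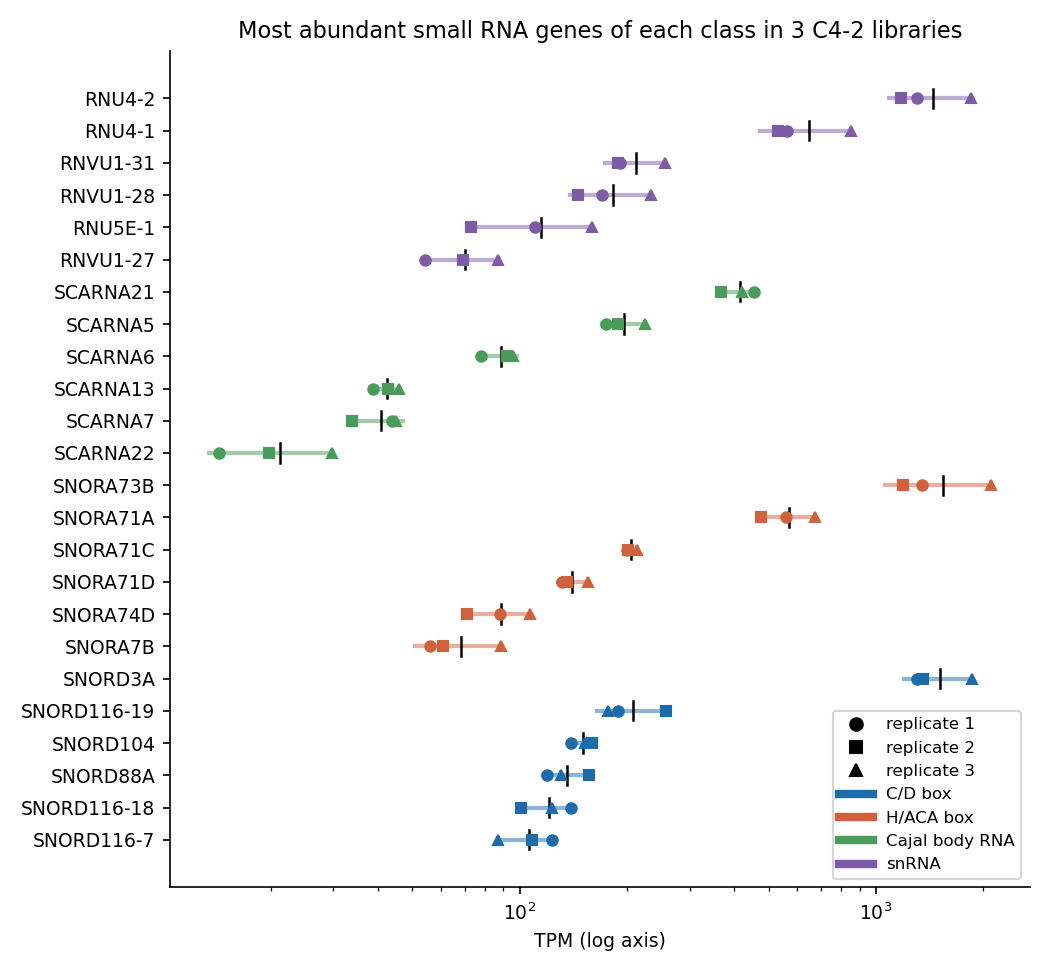
TPM on a log axis for the 6 most abundant members of each class, with a symbol for each of 3 C4-2 libraries, a black tick at the mean and a bar of 1 SD either side. SNORA73B, SNORD3A and RNU4-2 lie at 1179 TPM or more in every library, and most genes shown have their highest value in replicate 3.

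Among the C/D box RNAs below U3, SNORD116-19 had 292, 364 and 272 reads (208 ± 43.1 TPM). SNORD104, which guides methylation of the large ribosomal RNA, had 164, 172 and 178 reads (150 ± 10.1 TPM). SNORD88A had 182, 220 and 198 reads (135 ± 19.4 TPM). SNORD104 and SNORD88A varied little between libraries, and every 31-base word of both occurs once in the genome. SNORD116-18 and SNORD116-7 came next, at 121 ± 19.2 and 106 ± 18.03 TPM. The other U3 genes were low: SNORD3B-2 had 396, 301 and 326 reads and SNORD3B-1 had 160, 152 and 190. None of the 31-base words of SNORD3A or SNORD3B-1 was unique in the genome, and reads that map to several places were not counted. Levels of the U3 copies are thus uncertain and leave out reads that could not be placed.

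Among the H/ACA box RNAs, 3 of the 4 leading genes after SNORA73B came from introns of SNHG17, a long non-coding host. SNORA71A (chr20:38427309-38427442, minus strand) had 1255, 981 and 1509 reads (569 ± 100.02 TPM). SNORA71C (chr20:38429670-38429803, minus strand) had 450, 416 and 477 reads (205 ± 7.20 TPM). SNORA71D (chr20:38433865-38433998, minus strand) had 295, 280 and 347 reads (141 ± 12.7 TPM). These 3 levels kept their order in every library and did not overlap. Of the 5 small RNAs annotated in SNHG17, 4 were members. SNORA71B, the other, was at 46.7 ± 5.08 TPM, over a longer annotated span of 272 bases. The 3 shorter copies are shown because they share a host and a length of 134 bases yet differ in level and in sequence, with ACA in capitals at the end. SNORA71A was identical to SNORA71C at 95 of 134 positions (70.9%) and to SNORA71D at 96 (71.6%), and SNORA71C to SNORA71D at 116 (86.6%). All their 31-base words were unique in the genome.
SNORA71A: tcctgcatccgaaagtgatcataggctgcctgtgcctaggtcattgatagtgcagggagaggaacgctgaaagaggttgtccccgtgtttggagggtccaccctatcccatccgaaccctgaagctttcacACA
SNORA71C: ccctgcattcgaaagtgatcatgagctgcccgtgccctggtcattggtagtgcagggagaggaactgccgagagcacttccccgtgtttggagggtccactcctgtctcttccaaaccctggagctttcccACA
SNORA71D: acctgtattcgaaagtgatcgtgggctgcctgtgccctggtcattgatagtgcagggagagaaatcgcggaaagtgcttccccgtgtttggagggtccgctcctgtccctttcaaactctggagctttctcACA

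The other leading H/ACA box RNAs were SNORA74D at 88.5 ± 17.9 TPM and SNORA7B at 68.5 ± 17.7 TPM. Among the 9 Cajal body members, SCARNA21 led with 1064, 788 and 978 reads (415 ± 44.2 TPM). SCARNA5, a guide for the U5 spliceosomal RNA, had 809, 800 and 1039 reads (196 ± 26.3 TPM). SCARNA6, from the same host gene ATG16L1, had 346, 375 and 424 reads (88.5 ± 9.50 TPM). SCARNA13, SCARNA7 and SCARNA22 followed at 42.4 ± 3.49, 40.8 ± 6.10 and 21.2 ± 7.82 TPM. The order of the first 3 held in every library, whereas SCARNA13 and SCARNA7 overlapped.

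The spliceosomal RNAs were led by the 2 U4 genes of chromosome 12, RNU4-2 (chr12:120291763-120291903, minus strand) and RNU4-1 (chr12:120293097-120293237, minus strand). U4 holds U6 in an inactive pairing until the spliceosome is activated. RNU4-2 had 3092, 2561 and 4344 reads, and RNU4-1 had 1332, 1150 and 1998. RNU4-2 was higher than RNU4-1 in all 3 libraries. Their sequences are shown because they are the same at 137 of 141 positions. Counted from the 5′ end of the RNA, with RNU4-2 first, the substitutions are T37C, A88G, A99C and T113C. Capitals mark the site ATTTTTG, where the ring of Sm proteins binds.
RNU4-2: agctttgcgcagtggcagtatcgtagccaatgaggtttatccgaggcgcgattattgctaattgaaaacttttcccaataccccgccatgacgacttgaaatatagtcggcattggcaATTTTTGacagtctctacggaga
RNU4-1: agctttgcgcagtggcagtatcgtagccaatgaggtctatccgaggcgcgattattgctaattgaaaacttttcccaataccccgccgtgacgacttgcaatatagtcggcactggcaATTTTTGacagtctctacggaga

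Only 55.0% of the 31-base words of RNU4-2 and 43.2% of those of RNU4-1 were unique in the genome. Reads that map to several places were not counted, so both levels leave out reads that could not be placed.

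U5 contacts the exon ends at the splice site, and all 5 of its genes in the files not named as pseudogenes were members. RNU5E-1 had 223, 135 and 320 reads, RNU5A-1 had 158, 61 and 154, and RNU5B-1 had 66, 36 and 86. RNU5D-1 had 33, 18 and 64 reads and RNU5F-1 had 32, 10 and 16. All 5 were lowest in replicate 2. Together they had 512, 260 and 640 reads.

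U1 recognises the upstream splice site. The 14 U1 members not named as pseudogenes were all outside the canonical genes, led by the variants RNVU1-31 (525, 478 and 700 reads), RNVU1-28 (470, 368 and 640) and RNVU1-27 (150, 176 and 240). The canonical RNU1-1, RNU1-2, RNU1-3 and RNU1-4 had 0 to 13 reads in any library. Each of those 4 has 7 identical copies among the annotated small RNA genes, and 0% of its 31-base words were unique. RNU2-1, the canonical U2 gene, had 0 reads with 10 identical copies, and the 1 U2 member not named as a pseudogene had 34, 45 and 50 reads. For U6, the catalytic RNA, RNU6-8 had 102, 37 and 53 reads and RNU6-2 had 43, 26 and 53. RNU6-1, with 14, 4 and 12 reads, and RNU6-9, with 12, 2 and 12, missed the minimum in replicate 2, and RNU6-7 had 2, 0 and 0 reads. These values describe what could be placed uniquely, not the amount of U1, U2 or U6 RNA in the cells.

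The minor spliceosome, which removes a rare class of introns, was represented by U4atac and U6atac. RNU4ATAC had 19, 22 and 23 reads and RNU6ATAC had 40, 26 and 74. RNU11 and RNU12, the genes for its U11 and U12 RNAs, had 0 reads in all 3 libraries. RNU7-1, which encodes the U7 RNA of histone mRNA processing, also had 0 reads.

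Those zeros fell where annotations overlap. RNU12 and RNU7-1 shared 100% of their exon bases with an exon of another gene, and RNU11 shared 97.8%. In the counting, a read that fell on exons of several genes was dropped, so a read within shared bases counted for neither gene. The same held for U8 (SNORD118), U13 (SNORD13), both copies of U22 (SNORD22), SNORD14B, SNORD14C and SNORD14D of the U14 family, SNORD3D and SNORA73A, all with 100% of exon bases shared and 0 reads. SNORD14A and SNORD14E, the U14 genes with no shared base, had 19, 36 and 33 and 66, 34 and 48 reads. SNORD3C, which shared none, had 0, 1 and 7 reads.

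Over all 2890 genes, 205 shared every exon base, and all 205 had 0 reads in every library. They included 88 of 385 C/D box, 53 of 213 H/ACA box, 7 of 49 Cajal body and 42 of 1900 snRNA genes. Of the 2598 genes with no shared base 180 were members, and of the 87 with some shared bases 5 were. Among the 550 genes with a SNORD, SNORA or SCARNA symbol, 142 shared every exon base, and 107 of the 368 with none shared were members. A count of 0 elsewhere allows up to 3 reads, or 0.0586 to 0.0631 CPM (reads scaled by library size), by counting error alone. That limit rises to 6 reads (0.117 to 0.126 CPM) where each fragment gives a count for both mates.

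**Figure D2:**
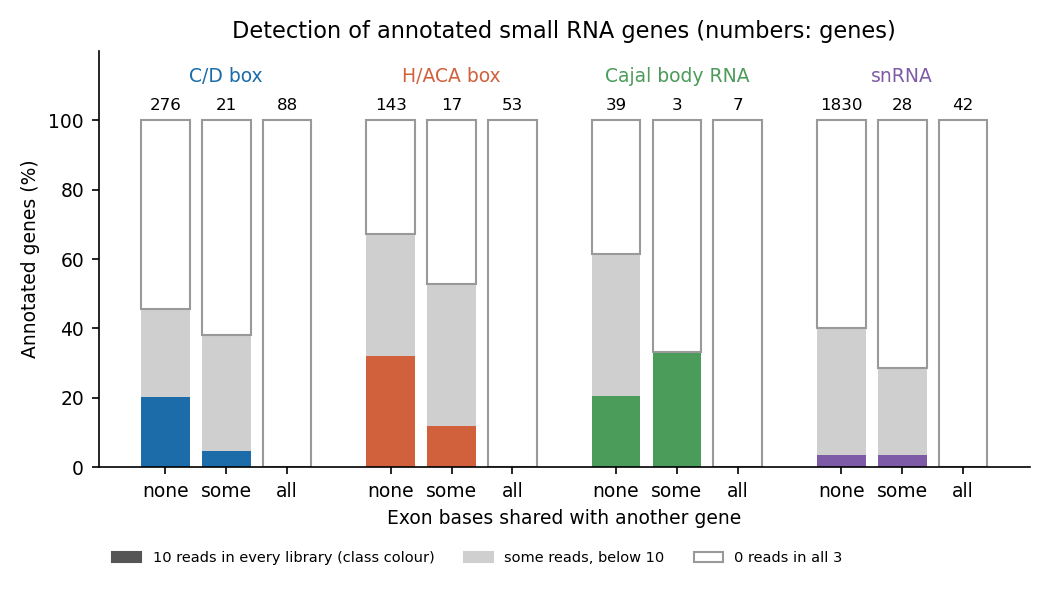
Percent of annotated genes of each class that were members (class colour), had fewer reads (grey) or had 0 reads in all 3 libraries (white), by whether none, some or all of their exon bases were shared with another gene, with the number of genes above each bar. Every gene with all exon bases shared had 0 reads, and among genes with none shared the coloured part is tallest for H/ACA box RNAs (46 of 143).

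Of the 185 members, 131 lay in an intron of a gene on the same strand, 1 in an exon, and 53 had no host. The 132 with a host lay in 102 genes: 96 members in protein-coding genes, 31 in long non-coding genes and 5 in pseudogenes. Where genes of several types spanned a member, the protein-coding one was taken as its host. Because reads from unspliced host RNA also fall on an intronic gene, snRNA pseudogenes in introns give a comparison level. Of 562 such genes with no shared base, 19 were members, the median was 0.373 TPM and the 95th percentile was 6.99 TPM. Above that percentile were 49 of 50 intronic C/D box members, 40 of 45 H/ACA box members and 8 of 8 Cajal body members. The highest pseudogene was at 30.6 TPM, and 18, 14 and 5 members of those classes lay above it. The rule asked members for 10 reads and the pseudogenes for none, which favours the members. For short genes it nearly fixes the count above the percentile. In replicate 1, 10 reads over the 92 bases of SNORD116-16 came to 6.47 TPM, close to that percentile. The counts are thus a description and do not show that members as a class exceed the pseudogenes. The 19 pseudogenes that were members had a median of 8.43 TPM. Without the rule, 193 intronic C/D box genes with no shared base had a median of 0.490 TPM, against 0.373 TPM for the pseudogenes. The 89 H/ACA box and 19 Cajal body genes of that kind had medians of 5.61 and 2.94 TPM.

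Levels of members and hosts were set side by side within each library. The median difference, member minus host, was -1.64 ± 0.193 on the log2(TPM + 0.1) scale (SD, n = 3), at -1.78, -1.42 and -1.72 in replicates 1, 2 and 3. In all 3 libraries 36 members were above their host and 87 below. It was -2.63 ± 0.14 for the 96 members in protein-coding hosts and 0.36 ± 0.195 for the 31 in long non-coding hosts. The median host level was 87.5 TPM in the first set and 30.7 TPM in the second. Of those 31 members 16 lay in SNHG14, which sets the latter level, and the median over the 12 distinct long non-coding hosts was 22.5 TPM. The difference was -0.23 ± 0.08 for the members in SNHG14 and 0.80 ± 0.18 for the other 15. Across the 132 genes, mean log2 levels of member and host had a Pearson's r of 0.0953 and a Spearman's rho of 0.0662, a description over points that share libraries and, in part, hosts.

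**Figure D3:**
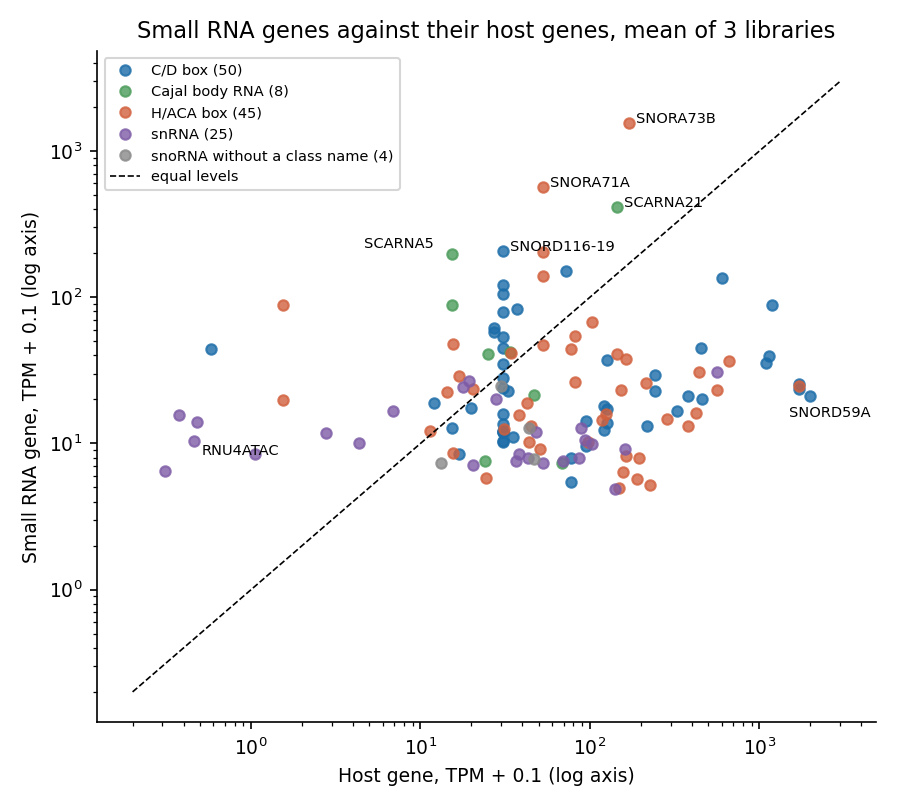
Mean TPM over 3 libraries of 132 members against the mean TPM of their host genes, both on log axes after adding 0.1, coloured by class, with a dashed line at equal levels. Points spread over the whole width with no visible slope, with SNORA73B far above the line and SNORD59A far below it, and the column near 31 TPM holds the 16 SNORD116 members of SNHG14.

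The members farthest above their hosts lay in genes with very low levels. The difference subtracts the host level, so hosts at extreme levels tend to give its extremes. A U3 copy of chromosome 17 (ENSG00000212195, chr17:58631641-58631836, minus strand) had 158, 113 and 152 reads in an intron of TEX14, whose mean was 0.479 TPM, a difference of 6.34. SNORA74D and the U1 variant RNVU1-34 followed at 5.82 and 5.39 above their hosts MATR3 and IGBP1C. The MATR3 gene model that holds SNORA74D shared 91.3% of its exon bases with other genes, so its level of 1.45 TPM is not that of the MATR3 locus. Among members with hosts at higher levels, SNORA73B lay 3.13 above RCC1, a nuclear exchange factor for the GTPase Ran that was at 171 ± 0.89 TPM. RCC1 is its host by a rule that takes a spanning protein-coding gene before any long non-coding one. Which transcript SNORA73B is cut from was not tested. SCARNA5 lay 3.66 above ATG16L1, an autophagy gene at 15.3 ± 0.799 TPM, and SCARNA21 lay 1.52 above CHD3, a chromatin remodeller at 144 TPM.

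As the same subtraction favours, the members farthest below their hosts lay in very abundant hosts. SNORD59A had 21, 23 and 33 reads, and its difference from ATP5F1B, the mitochondrial ATP synthase beta subunit at 2002 TPM, was -6.59. SNORD100 and SNORA33 had differences of -6.32 and -6.16 from RPS12, a ribosomal protein gene at 1710.3 ± 139 TPM. All 3 RNAs annotated in RPS12 were members, with SNORD101 at 25.3 ± 6.67, SNORA33 at 24.6 ± 7.26 and SNORD100 at 23.5 ± 11.2 TPM, levels that overlapped. In GNL3, the nucleolar GTPase nucleostemin at 126 ± 1.52 TPM, 3 of 6 annotated RNAs were members, with SNORD19 at 37.4 ± 15.5, SNORD19C at 17.04 ± 5.88 and SNORD69 at 13.7 ± 4.70 TPM.

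The largest group from 1 host was SNORD116, an array of related C/D box RNAs in the imprinted Prader-Willi region of chromosome 15, known for its expression in neurons. Its host SNHG14 was at 30.8, 32.6 and 28.8 TPM, and 16 of the 30 copies in the array were members. SNORD116-19 was the highest, at 189, 257 and 177 TPM, and 2 other copies were above 100 TPM on average, SNORD116-18 at 139, 101 and 123 and SNORD116-7 at 123, 108 and 87.0. SNORD116-6 was at 99.3, 54.8 and 83.6 TPM and SNORD116-13 at 50.5, 44.5 and 65.7. SNORD116-1 differed least between libraries, with 44, 41 and 44 reads. The lowest members of the array, SNORD116-29 and SNORD116-16, were near 10.2 and 10.4 TPM, so members as counted spanned more than an order of magnitude within 1 host.

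Copies of SNORD116 are alike in sequence, which limits which reads can be placed on 1 of them. SNORD116-19 and SNORD116-7 each have 1 identical copy among the annotated small RNA genes and no unique 31-base word. In the array, the 92-base copies with 1 identical copy were 17 and 19, at 11.9 and 208 TPM. Those of 95 bases were copies 3, 5, 7 and 9, at 15.7, 5.98, 106 and 6.10 TPM. Reads that map to several places were not counted, so these levels leave out reads that could not be placed. They are uncertain and cannot be ranked gene by gene. SNORD116-18 had 30.6% unique words and SNORD116-6 had 27.3%. Copies 4, 20, 21, 26, 27 and 28 shared 100% of their bases with another exon and copy 22 shared 95.7%, and all 7 had 0 reads. Of the other imprinted arrays, SNORD115, next to SNORD116 in the same host, had 13, 3 and 0 reads over 50 genes. SNORD114 had 2, 0 and 8 reads over 30 genes and SNORD113 had 0 reads over 9 genes, and none of the 3 arrays had a member.

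**Figure D4:**
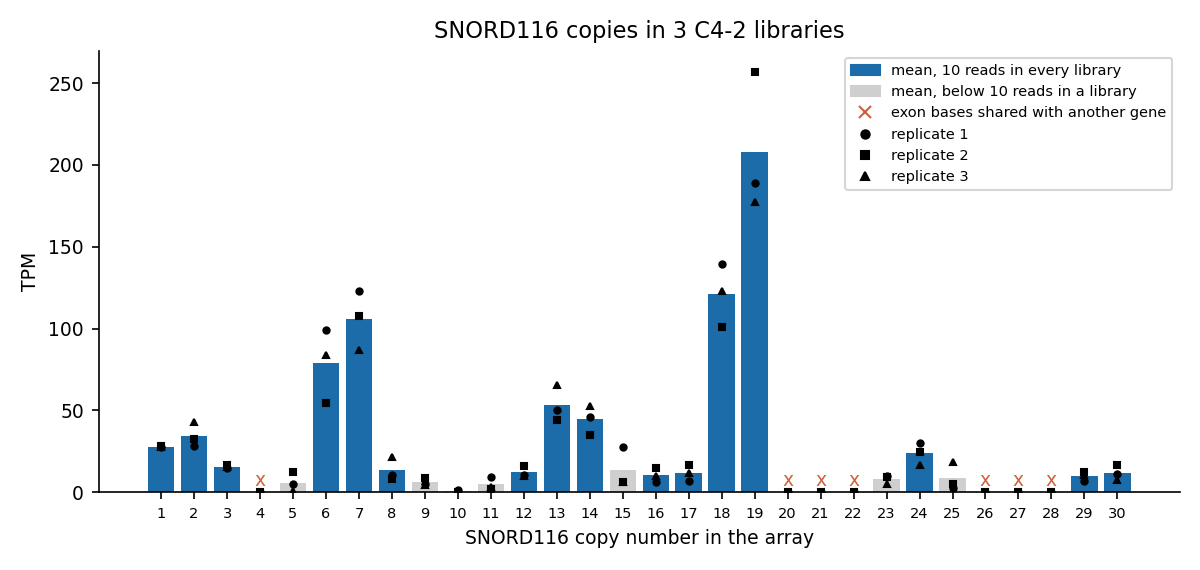
TPM of the 30 SNORD116 copies of chromosome 15 by copy number, with bars at the mean of 3 C4-2 libraries (blue for members, grey for copies with fewer than 10 reads in a library) and a symbol per library. Copies 6, 7, 18 and 19 are the tallest, and the 7 copies marked with a cross share exon bases with another gene and had 0 reads.

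Libraries of this 1 group were tested for differences beyond counting noise. The test was a chi-square test of homogeneity of each gene's 3 counts against TMM library sizes, adjusted by Benjamini-Hochberg over 21039 genes with 10 reads in every library. At an adjusted p under 0.05 it called 70 of 185 members (37.8%), beside a background of 46.1% of all genes tested. These shares are not at like depth: 91 of the members had 10 to 30 mean reads, as did 2993 of the 21039 genes. The test assumes reads that are independent. Low counts were even more often than odd (63.1% to 68.9% of genes under 50 mean reads), as when both mates of a fragment are counted. With the statistic divided by 2 it called 28 members (15.1%), beside a background of 17.6%. Without replicate 2 it called 36 members and without replicate 3 it called 33, with backgrounds of 23.8% and 23.8%.

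Members were also read by their mean number of reads over the libraries. By chi-square 17 of 91 members with 10 to 30 reads were called, beside a background of 22.2% of all genes in that range. It called 25 of 55 with 30 to 100 reads, beside 38.1%, and 14 of 24 with 100 to 300, beside 38.2%. Of the 15 with 300 or more reads it called 14, beside 57.5%. With the statistic divided by 2 the counts in these 4 ranges were 1, 7, 9 and 11, beside 2.24%, 7.65%, 9.38% and 27.5%. By share, the members stood furthest from the background among those with 300 or more reads, a range that holds SNORD3A, SNORA73B, RNU4-1, RNU4-2, SNORA71A, SNORA71C and SNORA71D. SNORA71C (adjusted p = 0.307, chi-square with Benjamini-Hochberg adjustment) was the 1 of the 15 not called.

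A further test allowed for the spread that genes had in common, by edgeR's negative binomial goodness of fit with 1 common dispersion (coefficient of variation 0.0738). It made no allowance for the counting of both mates, so genes with few reads may be called too readily. It called 25 members (13.5%), beside a background of 4.33%. They were 10 H/ACA box RNAs, 10 snRNAs, 4 C/D box RNAs, 1 gene without a class name and 0 of 9 Cajal body RNAs. At an unadjusted p under 0.05 it picked 4 of those 9, beside 15.9% of all genes tested, and chi-square called 5. By depth it called 4 of 91 members with 10 to 30 reads, beside 6.38%, 8 of 55 with 30 to 100, beside 12.4%, 6 of 24 with 100 to 300, beside 5.59%, and 7 of 15 with 300 or more, beside 0.342%. RNU4-2, RNU4-1 and the U5 genes other than RNU5F-1 were among the calls.

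The smallest chi-square p-values fell on members with many reads, where that test detects the smallest differences. After SNORD3A, the smallest adjusted p-values by chi-square with Benjamini-Hochberg adjustment were 1.87e-252 for SNORA73B, 1.22e-102 for RNU4-2, 6.82e-55 for RNU4-1 and 2.71e-20 for SNORA71A. With edgeR's common dispersion the adjusted p was 1.99e-05 for SNORA73B, 5.56e-04 for RNU4-1, 0.00125 for RNU4-2, 0.00929 for SNORD3A and 0.0419 for SNORA71A. Members with fewer reads had adjusted p-values in the same range by that fit: 3.32e-06 for SNORA74B, the smallest of any member, 5.01e-05 for SNORA23, 6.58e-05 for RNU5E-1 and 1.58e-04 for RNU5A-1. SNORD3A, SNORA73B, RNU4-2, RNU4-1 and SNORA71A were all highest in replicate 3. Without that library the chi-square adjusted p was 0.538 for SNORD3A and 0.110 for RNU4-1, and the other 3 stayed under 0.05.

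SNORD116-19, SNORD104 and SNORD88A, the C/D box members from introns with the highest TPM, had adjusted p-values of 0.214, 1.00 and 0.695 with edgeR's common dispersion. The 4 C/D box members called by that fit were SNORD3A and, from introns, SNORD17 (0.0302), SNORD116-6 (0.0304) and SNORD100 (0.0477). The more abundant H/ACA box RNAs SNORA73B and SNORA71A, also from introns, were called too. By chi-square the adjusted p of SNORD116-19 was 2.24e-04, and 0.0376 with the statistic divided by 2.

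Replicate 3 was high for many members with more reads. Of the 66 members with a mean of 50 reads or more, a minimum chosen after values were seen, 37 (56.1%) were highest in replicate 3 and 34 (51.5%) were lowest in replicate 2. Of all 15930 genes at that depth, 36.5% were highest in replicate 3 and 36.3% lowest in replicate 2. Among the 19 members with no host, mostly snRNAs, 13 were highest and 0 lowest in replicate 3. Of the 34 hosts of the other members, 19 were highest in replicate 3. Deviations were also taken at that depth, relative to each gene's mean over the libraries. The median log2 deviation in replicate 3 was 0.38 for 15 snRNAs, 0.27 for H/ACA box, 0.16 for Cajal body and 0.12 for C/D box members. Of the 7 SNORD116 members at that depth, 3 were highest in replicate 3, 3 in replicate 1 and 1 in replicate 2, and 4 were lowest in replicate 2. Over all 185 members, at any depth, 75 were highest in replicate 3 and 71 were lowest in replicate 2. Among the 36 snRNA members named as pseudogenes, 5 were highest and 18 lowest in replicate 3. The cause of these patterns was not tested.

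**Figure D5:**
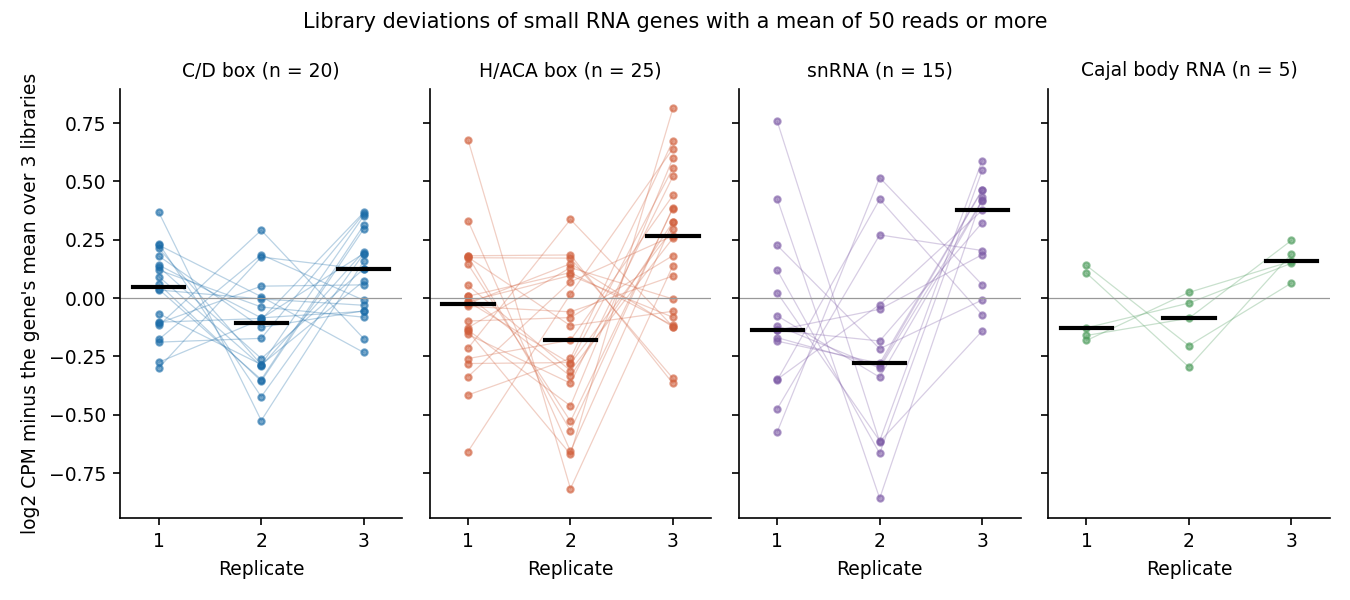
Log2 CPM (reads scaled by TMM library size) of each member with a mean of 50 reads or more minus its mean over 3 C4-2 libraries, by class, with thin lines joining the values of a gene and black bars at the class median. The medians lie above 0 in replicate 3 and below 0 in replicate 2 in the 4 classes, most widely for snRNAs (0.38 and -0.28).

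Listed genes for proteins that work with these RNAs were all detected as RNA, and protein was not measured. The C/D core genes FBL, SNU13, NOP56 and NOP58 were at 94.8 to 438 TPM, with FBL, for the methyltransferase fibrillarin, at 436, 441 and 437. The H/ACA core genes DKC1, NHP2, NOP10 and GAR1 were at 20.5 to 467 TPM. DKC1, for the pseudouridine synthase dyskerin, was at 104, 112 and 107. RNA was also detected for all 10 assembly factors, 7 Sm ring, 7 U6 ring and 11 other snRNP proteins. The same held for 13 genes of snRNA synthesis and the Cajal body. With edgeR's common dispersion 0 of these 56 genes were called, beside a background of 4.33%, and 0 had an unadjusted p under 0.05, beside 15.9% of all genes tested. All 56 had 300 or more mean reads, a depth at which 0.342% of genes were called. The 15.9% covers all depths and no unadjusted share was taken at this depth, so the 0 does not show unusual stability. By chi-square 33 of the 56 were called, beside 57.5% of genes at that depth and 46.1% of all genes. With its statistic divided by 2 it called 22, beside 27.5% at that depth and 17.6% of all genes. The summed level of the C/D core was 832, 840 and 827 TPM, and that of the Sm ring 1231, 1244 and 1182 TPM. That of the H/ACA core was 725, 728 and 771 TPM, and it was the 1 of the 7 lists whose sum was highest in replicate 3.

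At the read minimum, the members just inside were RNU6-720P with 14, 10 and 10 reads, SNORA72 with 12, 14 and 10, and RNU6-37P with 13, 13 and 12. Just outside were SNORD116-15 with 43, 9 and 10 reads, RNU6-1198P with 9, 23 and 22, and SNORA2B with 9, 19 and 21. The former were the members with the fewest reads in total, and the latter the genes with 9 reads in their lowest library and the most reads in total.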

How the data were processed

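Per the labels' protocols, Trizol RNA from 3 C4-2 samples was purified with an RNeasy kit, ribosomal RNA was removed, and 770 ng went into a strand-specific NEBNext kit. The submitters' processing notes name GRCh38, STAR 2.7.0f, Subread 1.6.3, DESeq2 1.26.0, Trim Galore and FastQC. Per the file headers, the authors deposited whole-number read counts for each gene, unnormalised, made with featureCounts 1.6.3 on Ensembl release 90. The recorded options leave featureCounts at its defaults, which ignore strand, drop reads that map to several places or overlap exons of more than 1 gene, and count mates separately. So an antisense neighbour's reads cannot be told from a gene's own.

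From these counts, TPM used the files' exon lengths, with 0.1 TPM added before log2. Gene types were those of GENCODE release 44, looked up by Ensembl ID (57532 of 58302 genes matched). All 2890 small RNA genes had the same coordinates in both annotations. A host is the gene on the same strand that spans the member, protein-coding before long non-coding before pseudogene, then the shortest. Unique words are 31-base stretches that occur once in hg38. The tests were a chi-square test of homogeneity and a goodness of fit with edgeR 4.0.16, Benjamini-Hochberg adjusted over 21039 genes. Both were checked on simulated data. In the goodness of fit, changed genes raised the estimate of the common dispersion, so that it misses more of the smaller changes. Its simulation gave all genes 1 dispersion at every depth and did not count both mates. The check thus does not cover calls that arise from either. Alternatives were DESeq2 1.42.0 size factors, other read minimums, pseudocounts and hosts, and leaving out each library.

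Genes were named by these rules: the 6 members of highest TPM in each class and the 10 with the most reads, genes of the spliceosomal RNAs and of ribosomal RNA cleavage whether detected or not, hosts with 3 or more members, the 3 members nearest each side of the read minimum, the 5 smallest adjusted p-values, the imprinted SNORD arrays, and the 3 highest and 3 lowest differences from the host. The fibroblast, endothelial and blood markers were checked too: COL1A1, DCN and PECAM1 lay between 0.00931 and 10.2 TPM, and PTPRC, HBB and CD3E at or under 0.00517 TPM. The members and lists were chosen with earlier results of these data known. Intervals and limits cover counting error only, since reads carry no molecular identifiers. Some items withheld for evaluation are not reported here.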

Additional observations from a re-analysis of the deposited data

How the results depend on the processing

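Members numbered 185 at 10 reads in every library, 276 at 5 reads, 97 at 20 reads, and 210 to 225 when 1 library was left out. Their share of reads was 0.0845%, 0.0497% without SNORD3A (an alternative chosen after seeing the data) and 0.0751% to 0.0899% with 1 library left out. The count of members that differed between libraries was 70 by chi-square, 28 with the statistic divided by 2, 25 with edgeR's common dispersion, and 33 to 49 with 1 library left out, where fewer samples enter the test. It was 70 with DESeq2 size factors and with total reads, and 66 with no filter on low counts. The H/ACA minus C/D median was 0.05, 0.46 without division by length, and 0.01 to 0.07 with 1 library left out. The member minus host median was -1.64, -7.42 without division by length, -1.93 for hosts with under 20% of exon bases shared (chosen after seeing the data), and -1.75 to -1.57 with 1 library left out. Without division by length, values hold the lengths of hosts as well. The cause of the other shifts was not tested. Of the 40 adjusted p-values of the 5 members with the smallest ones, 38 stayed under 0.05, and the highest was 0.538. No paired analysis was possible because there was 1 group. Depth limits the 91 members of 10 to 30 mean reads most, and copies and overlapping exons limit which genes can be counted at any depth. The median member was 128 bases long, and how well RNAs of such lengths were recovered was not measured. Levels compared between classes or with hosts may thus not reflect amounts in the cells.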

Other observations

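The 7 small nucleolar RNA genes without a class name were low and, in most cases, sequences that occur once in the genome. ENSG00000238832, in an intron of BCAP29, had 55, 73 and 46 reads (24.8 ± 7.10 TPM). ENSG00000200385, in an intron of TTC6, had 34, 32 and 18 reads (12.6 ± 4.11 TPM). ENSG00000212461, with no host, had 10, 30 and 10 reads and was the 1 gene of the 7 called with edgeR's common dispersion (adjusted p = 0.0239, Benjamini-Hochberg). That fit makes no allowance for the counting of both mates, and chi-square with its statistic divided by 2 called 0 of the 7. ENSG00000212461 may thus have been called too readily. Its count was highest in replicate 2.

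The 25 members called with edgeR's common dispersion were highest in replicate 3 in 16 cases, in replicate 1 in 8 and in replicate 2 in 1. The 912 genes called in the whole table were highest in replicate 3 in 310 cases (34.0%), in replicate 2 in 344 and in replicate 1 in 258. SNORA75, in an intron of the nucleolin gene NCL, went the other way, with 54, 22 and 12 reads. SNORA74B had 115, 75 and 216 reads and SNORA23 had 148, 155 and 305. These 3 genes were chosen after their values were seen.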
